A study of Homo sapiens with 3 samples.

Results

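The BCL2 family genes described here are the pro-survival genes BCL2, BCL2L1, BCL2L2 and MCL1, the effector genes BAX and BAK1, and the BH3-only genes BID, BBC3, PMAIP1 and BCL2L11. They were chosen by name, not by a rule on their measured levels, though earlier results of these data were known. The tables of all 3 libraries share 43389 gene rows. The 10 genes were found in 10 of the 39320 of these rows that lie on references named without the character _. RNA was sequenced in 3 libraries labelled HepG2 replicates 1 to 3, which the labels call liver cancer cells of genotype WT (wild type), and the labels name no treatment or time. HepG2 is an established human liver cancer cell line, and markers given below go against this label. The libraries form 1 condition, so the comparisons below are between genes within a library and between the replicates. Nothing states that the replicates came from separate cultures, so their spread may be technical.

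The BCL2 family controls the mitochondrial route to apoptosis. In a cell under stress, BAX and BAK1 form pores in the outer membrane of the mitochondrion, and cytochrome c then leaves and starts the caspases. The pro-survival proteins hold BAX, BAK1 and the BH3-only proteins bound and keep the membrane intact, while the BH3-only proteins carry the stress signal, by binding the pro-survival proteins and, for some of them, by activating BAX and BAK1 directly. Contact between the proteins is made through the BH3 domain, a short helix that enters a groove of the pro-survival proteins. In hepatocytes, MCL1 and BCL2L1 are known to be needed for survival.

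The BH3 domain is the feature that members of all 3 roles share, so the codons of its core are shown for each. In the coding sequence of the MANE Select transcript (GENCODE v44, GRCh38), a leucine or methionine codon followed by 3 codons of any kind, a glycine or alanine codon and an aspartate codon was searched for in frame on the coding strand. Each of the 10 coding sequences held exactly 1 match. The 27 bases, or 9 codons, from the start of the match are written 5′ to 3′ on the coding strand, with capitals for the leucine or methionine codon and for the glycine or alanine and aspartate codons.
BCL2: CTCcgccaggccGGCGACgacttctcc
BCL2L1: CTGagggaggcaGGCGACgagtttgaa
BCL2L2: ATGcgggcagctGGAGATgagttcgag
MCL1: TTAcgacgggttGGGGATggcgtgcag
BAX: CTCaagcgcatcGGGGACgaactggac
BAK1: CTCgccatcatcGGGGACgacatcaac
BID: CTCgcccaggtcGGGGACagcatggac
BBC3: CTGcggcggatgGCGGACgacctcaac
PMAIP1: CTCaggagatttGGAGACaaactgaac
BCL2L11: TTGcggcgtattGGAGACgagtttaac
Leucine came first in 9 of the 10, with methionine in BCL2L2, and glycine came before aspartate in 9 of the 10, with alanine in BBC3. Over the 45 pairs of members, between 9 and 19 of the 27 bases were identical, with a median of 14. The lowest identity was between BCL2L2 and BID, and 19 bases were identical between BAX and PMAIP1, between BAK1 and BID, and between BBC3 and BCL2L11. The pattern is short: 29.5% of the 19061 MANE Select coding sequences held it at least once and 21.7% held it exactly 1 time, so a match describes these members and does not mark them out.

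The tables give 1 row per gene with its TPM (transcript abundance scaled for gene length and to the same total in each library), its FPKM (fragment abundance scaled for gene length and library size, proportional to TPM within a library) and its coverage (the mean read depth over the gene, not scaled for library size). The tables hold no counts, so depth is unknown and the precision of each value is its SD over the 3 libraries. As a relative measure of depth, the largest coverage-to-FPKM ratios of replicates 1, 2 and 3 were 13.3, 12.8 and 11.5, and between 13690 and 13765 gene rows reached 1 TPM per library. Mitochondrially encoded genes took between 19.9% and 20.2% of all TPM. The defining markers of liver cells were missing: of 10 secreted hepatocyte products, only RBP4 and VTN reached 1 TPM, and ALB, APOA1, APOB, SERPINA1 and FGB had a level of 0 in each library. The summed level of the 10 was between 33.6 and 35.3 TPM. The 2 keratins of simple epithelia, KRT8 and KRT18, reached 10 TPM in all libraries among 5 epithelial markers, as did VIM, CDH2 and ZEB1 among 5 mesenchymal markers. On the coverage scale described below, VIM was at 607 ± 39.1, CDH2 at 7.01 ± 0.409 and ZEB1 at 1.16 ± 0.0376. All 4 blood markers were below 1 TPM in every library, with PTPRC and CD3E at 0 and a summed level between 1.21 and 1.48 TPM. AFP, the fetal liver protein for which HepG2 is known, was at or below 0.0248 TPM. These values go against the label HepG2, which could not be checked further here, so the levels below hold for the libraries labelled HepG2 and the part of this in them was not tested.

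All 10 BCL2 family genes reached 1 TPM in every library, against 33.8% of the 39320 gene rows on references named without the character _. At least 10 TPM in every library was reached by 8 of the 10, against 20.7% of those rows, with BBC3 and BCL2 the exceptions. The median of the members' mean levels was 20.9 TPM, against 15.4 TPM in the 13753 rows whose mean reached 1 TPM. BAX stood highest, followed by MCL1 and BCL2L1, and BCL2, the gene after which the family is named, stood lowest.

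Among the pro-survival genes, MCL1 stood first. MCL1 encodes a short-lived protein of the outer mitochondrial membrane, and its row lies on chromosome 1 (minus strand) from 150574551 to 150579738. It had 119, 114 and 109.9 TPM in replicates 1, 2 and 3, a mean of 114 ± 4.80 TPM (SD, n = 3). The 3 libraries lay close together, and the mean exceeded 90.6% of the rows with a mean of at least 1 TPM. Its coverage was 723, 674 and 583 in the same order, the highest coverage of any member. Its BH3 codons begin at codon 213 of 350, in exon 1 of 3 (chr1:150578868-150578894).

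BCL2L1, which encodes the pro-survival protein BCL-XL and, by alternative splicing, the shorter and pro-apoptotic BCL-XS, lies on chromosome 20 (minus strand) from 31664452 to 31723999. Its levels were 89.2, 87.5 and 86.9 TPM in replicates 1, 2 and 3, with a mean of 87.9 ± 1.17 TPM (SD, n = 3). The coefficient of variation (CV, the SD as a percent of the mean) was 1.33%. Each table holds 1 level per gene, which was not divided between BCL-XL and BCL-XS. RefSeq lists 11 curated transcripts of BCL2L1. The BH3 codons begin at codon 90 of 233, in exon 2 of 3 (chr20:31721925-31721951).

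BCL2L2 encodes the pro-survival protein BCL-W, and its row lies on chromosome 14 (plus strand) from 23306762 to 23311759. It had 12.0, 12.2 and 11.4 TPM in replicates 1, 2 and 3, a mean of 11.8 ± 0.382 TPM (SD, n = 3), far under MCL1 and BCL2L1 in every library. Its BH3 codons begin at codon 46 of 193, in exon 3 of 4 (chr14:23307903-23307929).

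BCL2 encodes the founding member of the family, a pro-survival protein of the mitochondrion and the endoplasmic reticulum. Its row is the longest among the members and spans 196935 bp on chromosome 18 (minus strand), from 63123346 to 63320280. It had 5.37, 4.85 and 4.76 TPM in replicates 1, 2 and 3, a mean of 4.99 ± 0.327 TPM (SD, n = 3) that exceeded 24.6% of the rows with a mean of at least 1 TPM. No library overlapped the range of any other member. The BH3 codons begin at codon 97 of 239, in exon 2 of 3 (chr18:63318352-63318378).

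Summed TPM of the 4 pro-survival genes was 226, 218 and 213 in replicates 1, 2 and 3. MCL1 made up 52.2% ± 0.638 of this sum, BCL2L1 40.1% ± 0.673, BCL2L2 5.41% ± 0.142 and BCL2 2.28% ± 0.0849 (SD, n = 3). From coverage, the shares were 57.4% ± 0.967 for MCL1, 36.1% ± 1.03 for BCL2L1, 6.04% ± 0.192 for BCL2L2 and 0.459% ± 0.0179 for BCL2. By TPM, the share of MCL1 lay between 51.6% and 52.9% in the 3 libraries.

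Of the effectors, BAX stood far above BAK1. BAX rests in the cytosol and moves to the mitochondrion when it is activated, and its row lies on chromosome 19 (plus strand) from 48954825 to 48961798. It had 146, 159 and 152 TPM in replicates 1, 2 and 3, a mean of 152 ± 6.46 TPM (SD, n = 3) that exceeded 93.1% of the rows with a mean of at least 1 TPM. By TPM, its lowest library lay above the highest library of every other member. By coverage, every library of MCL1 lay above every library of BAX on the TPM scale. Its BH3 codons begin at codon 63 of 192, in exon 3 of 6 (chr19:48955787-48955813).

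BAK1 encodes BAK, the effector that sits in the outer mitochondrial membrane before activation, and lies on chromosome 6 (minus strand) from 33572552 to 33580296. It had 24.8, 23.8 and 23.2 TPM in replicates 1, 2 and 3, a mean of 23.9 ± 0.831 TPM (SD, n = 3). BAX made up 86.4% ± 0.821 and BAK1 13.6% ± 0.821 of the summed effector TPM, which was 171, 183 and 176 in replicates 1, 2 and 3. From coverage, the shares were 80.3% ± 1.17 for BAX and 19.7% ± 1.17 for BAK1. The BH3 codons of BAK1 begin at codon 78 of 211, in exon 4 of 6 (chr6:33575390-33575416).

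The BH3-only genes spread over a narrower range than the pro-survival genes. BID, whose protein is cut by caspase 8 and so links the death receptors to the mitochondrion, lies on chromosome 22 (minus strand) from 17734140 to 17774665. It had 39.6, 37.1 and 37.4 TPM in replicates 1, 2 and 3, a mean of 38.0 ± 1.40 TPM (SD, n = 3). BID stood above the other BH3-only members in every library. Its BH3 codons begin at codon 90 of 195, in exon 4 of 6 (chr22:17739418-17739444).

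PMAIP1 encodes NOXA, which binds MCL1, and lies on chromosome 18 (plus strand) from 59899960 to 59904306. It had 18.1, 17.8 and 17.9 TPM in replicates 1, 2 and 3, a mean of 18.0 ± 0.159 TPM (SD, n = 3). Its CV was 0.883%, and 2.41% after median-of-ratios scaling, which sets the libraries to the same median gene. With 54 codons, its coding sequence is the shortest of the members, and the BH3 codons begin at codon 29 in exon 2 of 2 (chr18:59902673-59902699).

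BCL2L11 encodes BIM, which binds all of the pro-survival proteins, and lies on chromosome 2 (plus strand) from 111120914 to 111168445. Its levels were 13.3, 11.8 and 11.2 TPM in replicates 1, 2 and 3, a mean of 12.1 ± 1.05 TPM (SD, n = 3). The CV was 8.65%, and 5.66% after median-of-ratios scaling, with the highest value in replicate 1. The BH3 codons begin at codon 152 of 198, in exon 3 of 4 (chr2:111150103-111150129).

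BBC3 encodes PUMA, which also binds all of the pro-survival proteins, and lies on chromosome 19 (minus strand) from 47220822 to 47232998. It had 9.58, 9.80 and 9.70 TPM in replicates 1, 2 and 3, a mean of 9.69 ± 0.107 TPM (SD, n = 3). The 3 libraries lay just under 10 TPM, with a CV of 1.10%, and of 3.74% after median-of-ratios scaling. The BH3 codons begin at codon 141 of 193, in exon 3 of 4 (chr19:47226582-47226608).

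Summed TPM of the 4 BH3-only genes was 80.6, 76.4 and 76.3 in replicates 1, 2 and 3. BID made up 48.9% ± 0.365 of it, PMAIP1 23.1% ± 0.546, BCL2L11 15.5% ± 0.865 and BBC3 12.5% ± 0.508 (SD, n = 3). From coverage, BID made up 53.6% ± 0.817 and PMAIP1 31.6% ± 0.541, while BCL2L11 made up 2.91% ± 0.206, below BBC3 at 12.0% ± 0.530.

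**Figure D1:**
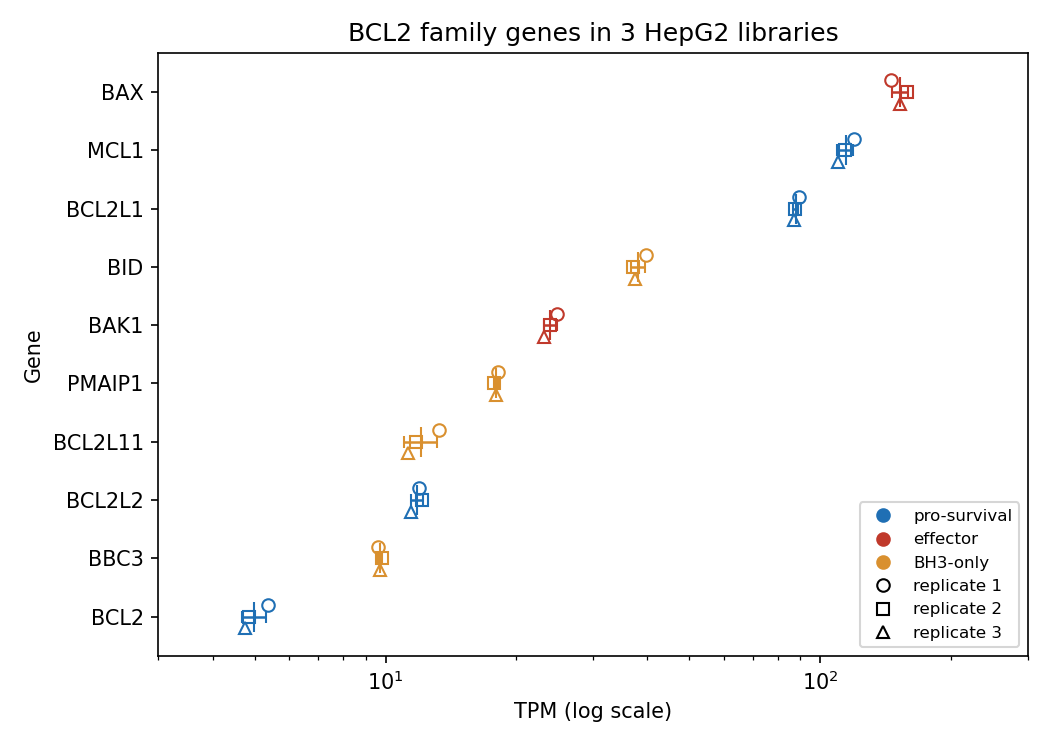
TPM (log axis) of each BCL2 family gene in replicates 1 (circles), 2 (squares) and 3 (triangles), with the mean as a vertical tick and the SD over the 3 libraries as a horizontal bar. Levels run from 4.99 ± 0.327 TPM for BCL2 to 152 ± 6.46 TPM for BAX, and only BCL2L11 and BCL2L2 overlap.

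Ordered by mean TPM, the members were BAX, MCL1, BCL2L1, BID, BAK1, PMAIP1, BCL2L11, BCL2L2, BBC3 and BCL2. In 8 of the 9 neighbouring pairs of this order the ranges of the 3 libraries did not overlap. The exception was BCL2L11 and BCL2L2, whose means differed by 1.02 times and whose order changed between libraries. The largest steps were from BCL2L1 to BID, at 2.31 times, and from BBC3 to BCL2, at 1.94 times. The smallest step without overlap was from BCL2L2 to BBC3, at 1.22 times.

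Between the replicates, the range of log2(TPM + 1) over the 3 libraries was above 0.5 in 0 of the 10 members, against 4.17% of the 13753 rows with a mean of at least 1 TPM, a share at which few or none of 10 genes would be above it. The members' median range was 0.09 and that of these rows was 0.15, while the median CV was 3.57% and 6.12%. BCL2L11 had the widest range among the members at 0.22 and PMAIP1 the narrowest at 0.02. The highest of the 3 values fell in replicate 1 for 7 members, against 58.1% of the rows, and in replicate 2 for BAX, BCL2L2 and BBC3. With median-of-ratios scaling, whose factors were 1.03, 0.995 and 0.976, the highest value fell in replicates 1, 2 and 3 for 5, 2 and 3 members, against 38.1%, 27.9% and 34.1% of the rows. Under this scaling the CV ran from 0.604% for BAK1 to 6.47% for BAX, and from deposited TPM from 0.883% for PMAIP1 to 8.65% for BCL2L11.

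Members of the same role were compared within each library for 6 pairs, as the log2 ratio of their TPM values after 1 was added to each. MCL1 exceeded BCL2L1 by 0.42, 0.38 and 0.33 in replicates 1, 2 and 3, a mean log2 ratio of 0.38 ± 0.04 or 1.30 ± 0.0376 times (SD, n = 3). By TPM, each library showed a small excess of MCL1, and the mean log2 ratio from coverage was 0.67 ± 0.06. MCL1 exceeded BCL2L2 by 3.17 ± 0.05, or 9.66 ± 0.313 times, and BCL2L1 exceeded BCL2 by 3.89 ± 0.06, or 17.6 ± 0.894 times, the largest of the 6. The BAX to BAK1 ratio was 2.51, 2.69 and 2.67 in replicates 1, 2 and 3, a mean of 2.62 ± 0.10 or 6.37 ± 0.431 times. BID exceeded BCL2L11 by 1.58 ± 0.07, or 3.16 ± 0.170 times. BBC3 stood below PMAIP1, with a log2 ratio of -0.83 ± 0.03 or 0.540 ± 0.0107 times. All 6 differences had the same direction in 3 of 3 libraries and were larger than the spread between the libraries. A two-sided exact permutation test that flips the signs of the 3 ratios gave p = 0.25 for every pair, with adjusted p = 0.25 by the Benjamini-Hochberg method over 6 pairs. No smaller p is possible with 3 libraries, so the design cannot reach 0.05.

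**Figure D2:**
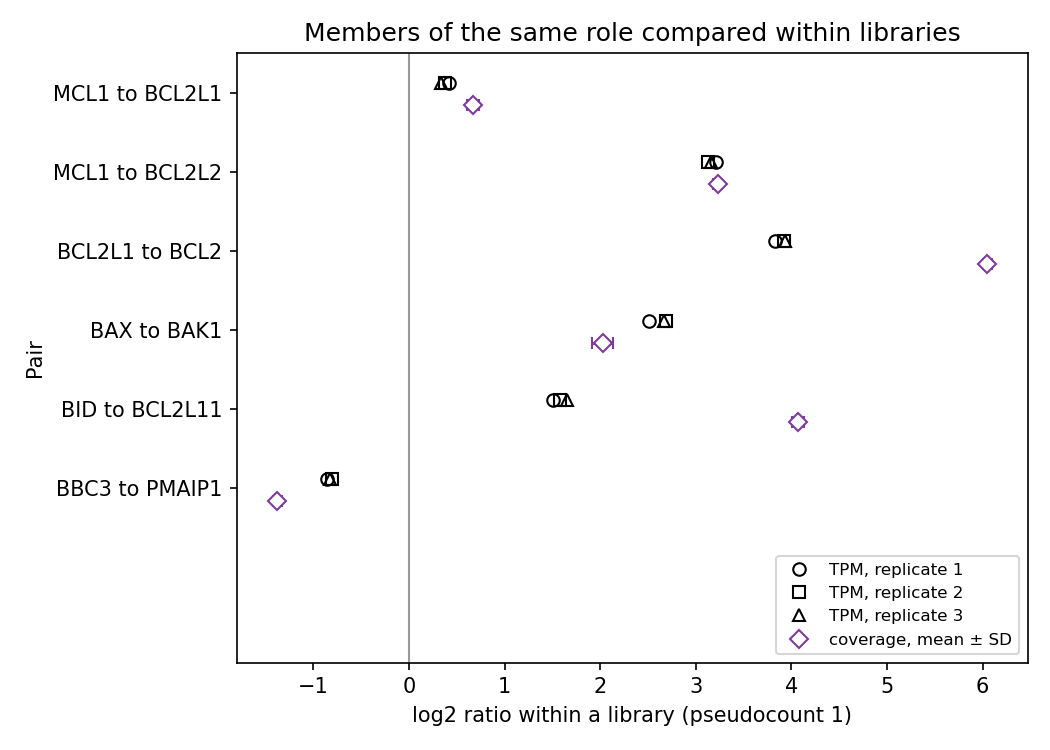
Log2 ratio within a library (pseudocount 1) for 6 pairs of members of the same role, from TPM in replicates 1 to 3 (black symbols) and from coverage as mean ± SD over the 3 libraries (purple diamonds). Each pair keeps its side of 0 with coverage, while BCL2L1 to BCL2 moves from 3.89 to 6.05 and BID to BCL2L11 from 1.58 to 4.07. BAX to BAK1 moves from 2.62 to 2.02 and MCL1 to BCL2L1 from 0.38 to 0.67. BBC3 to PMAIP1 moves from -0.83 to -1.38 and MCL1 to BCL2L2 from 3.17 to 3.23.

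Set side by side by role, the 10 genes summed to 477, 477 and 465 TPM in replicates 1, 2 and 3. The pro-survival genes took 46.3% ± 0.907 of this sum, the effectors 37.3% ± 1.32 and the BH3-only genes 16.4% ± 0.440 (SD, n = 3). The log2 ratio of summed pro-survival to summed effector TPM was 0.40, 0.26 and 0.28 in replicates 1, 2 and 3, a mean of 0.31 ± 0.08 or 1.24 ± 0.0695 times. It was lowest in replicate 2, the library with the highest BAX. From coverage the same log2 ratio was 0.74 ± 0.08. The summed BH3-only level was 0.442 ± 0.0276 times the summed effector level. These are sums of RNA levels over different numbers of genes, no test was made of them, and RNA levels are not protein levels.

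TPM and coverage gave different levels for some members. A gene's coverage was put on the TPM scale by dividing it by the library's highest ratio of coverage to FPKM and multiplying by the library's TPM per FPKM, which leaves genes at that highest ratio unchanged. PMAIP1 was the 1 member within 99% of the highest ratio in every library, against 24.7% of the rows with a mean of at least 1 TPM. BCL2L2, MCL1 and BAK1 followed, at 0.980, 0.965 and 0.943 of the highest ratio. BID, BCL2L1, BBC3 and BAX were at 0.801, 0.790, 0.702 and 0.606, and BCL2 and BCL2L11 stood apart at 0.177 and 0.137.

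On the scale set by coverage, BCL2 was at 0.945, 0.838 and 0.868 in replicates 1, 2 and 3, below 1 in every library, with a mean of 0.884 ± 0.0553 (SD, n = 3). BCL2L11 was at 1.66 ± 0.157 in place of 12.1 ± 1.05 TPM. BAX was at 92.4 ± 4.56 in place of 152 ± 6.46 TPM, and MCL1 was at 110.4 ± 4.66. By coverage, therefore, the order was MCL1, BAX, BCL2L1, BID, BAK1, PMAIP1, BCL2L2, BBC3, BCL2L11 and BCL2. The log2 ratio of BAX to MCL1 was 0.41 ± 0.11 from TPM and -0.26 ± 0.11 from coverage, so which of them stood first depended on the measure. The ratio of BCL2L11 to BBC3 likewise went from 0.29 ± 0.12 to -1.93 ± 0.13, and that of BCL2L11 to BCL2L2 from 0.03 ± 0.10 to -2.69 ± 0.10. These coverage ratios were taken from the deposited coverage with 1 added, not from the coverage scale. On the coverage scale 9 members had at least 1 in every library, against 31.1% of the 39320 rows, and 7 had at least 10, against 16% of them. Why a gene lies below the highest ratio was not tested. As annotation, RefSeq lists 18 curated transcripts for BCL2L11, 9 for BAX, 7 for BID, 6 for PMAIP1, 4 for BBC3, 3 for MCL1, 3 for BCL2, 2 for BCL2L2 and 1 for BAK1.

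**Figure D3:**
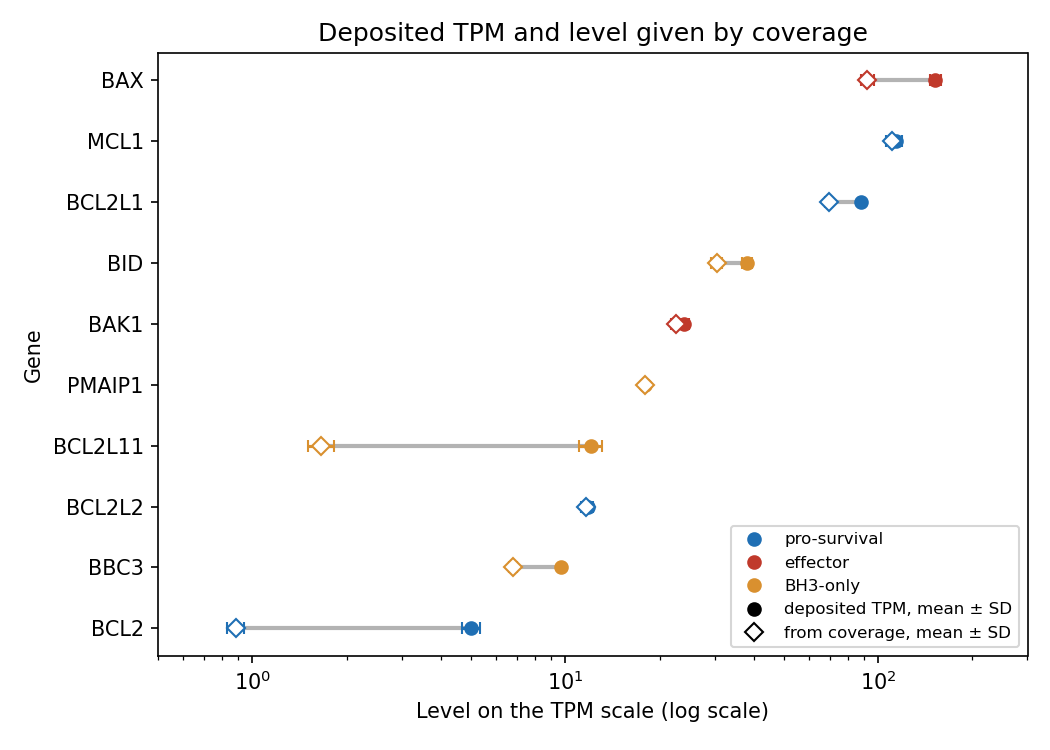
Mean ± SD over 3 libraries of the deposited TPM (filled circles) and of the level that the coverage gives on the TPM scale (open diamonds) for each BCL2 family gene, on a log axis. The measures lie together for PMAIP1, BCL2L2, MCL1 and BAK1 and far apart for BCL2L11 (12.1 and 1.66) and BCL2 (4.99 and 0.884).

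Reads over some members could belong to other genes. In the tables, 7 other gene rows overlapped 5 of the members, namely BCL2L1, BCL2L2, MCL1, BID and BBC3, and the other 5 members had none. BCL2L2-PABPN1, a read-through gene of BCL2L2 and its neighbour PABPN1, begins at the same base as BCL2L2 on the same strand and ends at 23326185. It had 19.9, 18.8 and 20.5 TPM in replicates 1, 2 and 3, a mean of 19.8 ± 0.902 TPM (SD, n = 3), above BCL2L2 in every library. Its annotated exons in GENCODE v44 share 590 of the 3526 exonic bases of the MANE Select transcript of BCL2L2, or 16.7%. All 27 bases shown for the BH3 core lie within the span of the read-through row, and were not checked against its exons. BCL2L2 and the read-through together had 31.9, 30.9 and 32.0 TPM, a mean of 31.6 ± 0.583 TPM. With the read-through added to the pro-survival genes, the log2 ratio to the effectors was 0.44 ± 0.08. PABPN1, a poly(A)-binding protein, had 140 ± 2.92 TPM, but was at 69.8 ± 1.09 on the coverage scale.

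ABALON, a long non-coding RNA on the strand opposite BCL2L1, overlaps the row of BCL2L1 over 1903 bp, from 31721507 to 31723409. It had 5.89 and 4.45 TPM in replicates 1 and 2 and was listed at 0 in replicate 3. The span of its row covers 945 of the 2574 exonic bases of the MANE Select transcript of BCL2L1, or 36.7%, including the BH3 core. The strand setting of the counting is not given in the sources used here, so reads from this region could have been assigned to either gene. LOC105372589, also opposite BCL2L1, was at or below 0.235 TPM in every library. MIR3191, within the row of BBC3 on the same strand, had 7.31, 6.33 and 3.87 TPM, and MIR3190, opposite BBC3, was listed at 0 in all 3. MIR3198-1 within BID was at or below 0.150 TPM, and ADAMTSL4-AS1, which shares 2 bp with the row of MCL1, had 1.04, 0.564 and 0.515 TPM. The rows of these last 5 genes share 0 exonic bases with the members' MANE Select transcripts, and other transcripts of the members were not compared.

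By the distance of log2(TPM + 1) over the 3 libraries, the rows nearest to BAX, the member with the highest mean TPM, were H1F0, EMC4 and NUCB1, at distances of 0.05, 0.05 and 0.06. Their means were 150.2 ± 4.51, 155 ± 4.20 and 149 ± 5.59 TPM (SD, n = 3).

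Of 13 other genes of the BCL2 family, 9 had at least 1 TPM and 6 at least 10 TPM in every library, with a median of 6.08 TPM. The pro-survival genes BCL2A1 and BCL2L10 were listed at 0 in all 3 libraries, as was BCL2L14. The highest of the 13 was BAD, a BH3-only gene whose protein is held inactive by phosphorylation and binds BCL2 and BCL-XL, with 103 ± 2.64 TPM (SD, n = 3), more than any BH3-only member. BIK, a BH3-only gene of the endoplasmic reticulum, had 12.0 ± 0.365 TPM. BNIP3 and BNIP3L, receptors for the removal of mitochondria by autophagy, had 56.1 ± 1.65 and 27.8 ± 1.54 TPM. BCL2L12 had 46.1 ± 0.228 TPM, and BCL2L13, a mitochondrial membrane protein, had 37.8 ± 3.75 TPM but 5.25 ± 0.303 on the coverage scale. BMF, a BH3-only gene whose value was looked up after the counts were seen, was below 1 TPM in every library at 0.215 ± 0.0703 TPM.

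The genes that act at the mitochondrion were high. All 8 were at 10 TPM or more in each library, with a median of 117 TPM. The channels of the outer membrane VDAC1, VDAC2 and VDAC3 had 520.5 ± 11.8, 335 ± 5.47 and 232 ± 1.87 TPM, and VDAC2 is known to hold BAX and BAK at the membrane. CYCS, the cytochrome c that the pores release, had 148 ± 2.67 TPM. AIFM1 had 86.0 ± 0.881, ENDOG 69.2 ± 7.95, DIABLO 37.5 ± 2.24 and HTRA2 27.7 ± 0.145 TPM (SD, n = 3), and DIABLO was at 22.6 ± 0.668 on the coverage scale.

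Of 6 genes of the apoptosome and caspases, 6 had at least 1 TPM and 4 at least 10 TPM in every library, with a median of 13.7 TPM. CASP9, the initiator caspase that the apoptosome activates, had 16.3 ± 0.698 TPM, and 10.3 ± 0.683 on the coverage scale. CASP8, which cuts BID, had 24.4 ± 0.888 TPM, but was at 5.18 ± 0.161 on the coverage scale. CASP2 had 25.2 ± 1.59 TPM, and 16.5 ± 1.06 on the coverage scale, and CASP6 had 11.1 ± 0.430 TPM. APAF1, the scaffold of the apoptosome, which was looked up after the counts were seen, had 10.8, 8.21 and 12.3 TPM in replicates 1, 2 and 3. Its range of log2(TPM + 1) of 0.53 was above 0.5. On the coverage scale APAF1 was at 9.96, 7.58 and 8.57 in the same order, so the highest library depended on the measure. The range was not computed on that scale. On the coverage scale, 2 of the 6 genes had at least 10 in every library.

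The inhibitors of apoptosis (IAP), which act after the mitochondrion, had at least 1 TPM in every library in 6 of 7 genes and at least 10 TPM in 4, but at least 10 on the coverage scale in 2. BIRC5, known as survivin and high in dividing cells, had 164 ± 6.69 TPM, a mean above that of every BCL2 family member. In replicate 2, though, BAX was higher, at 159 against 157 TPM. BIRC2 had 16.0 ± 0.476 TPM and BIRC6 14.8 ± 1.67 TPM, which was 5.98 ± 0.676 on the coverage scale for BIRC6. XIAP, which binds and blocks caspases, had 14.8 ± 0.731 TPM, and 3.48 ± 0.231 on the coverage scale.

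Of the 3 genes listed for the turnover of the MCL1 protein, all reached 1 TPM and 2 reached 10 TPM in every library. The ubiquitin ligase HUWE1 had 114 ± 6.92 TPM and the deubiquitinase USP9X had 79.4 ± 7.57 TPM. Over the 37 genes of these lists, TPM exceeded the level given by coverage by over 1.5 times in 8. It did so in 3 of the 10 members, against 39.2% of the 13753 rows with a mean of at least 1 TPM.

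**Figure D4:**
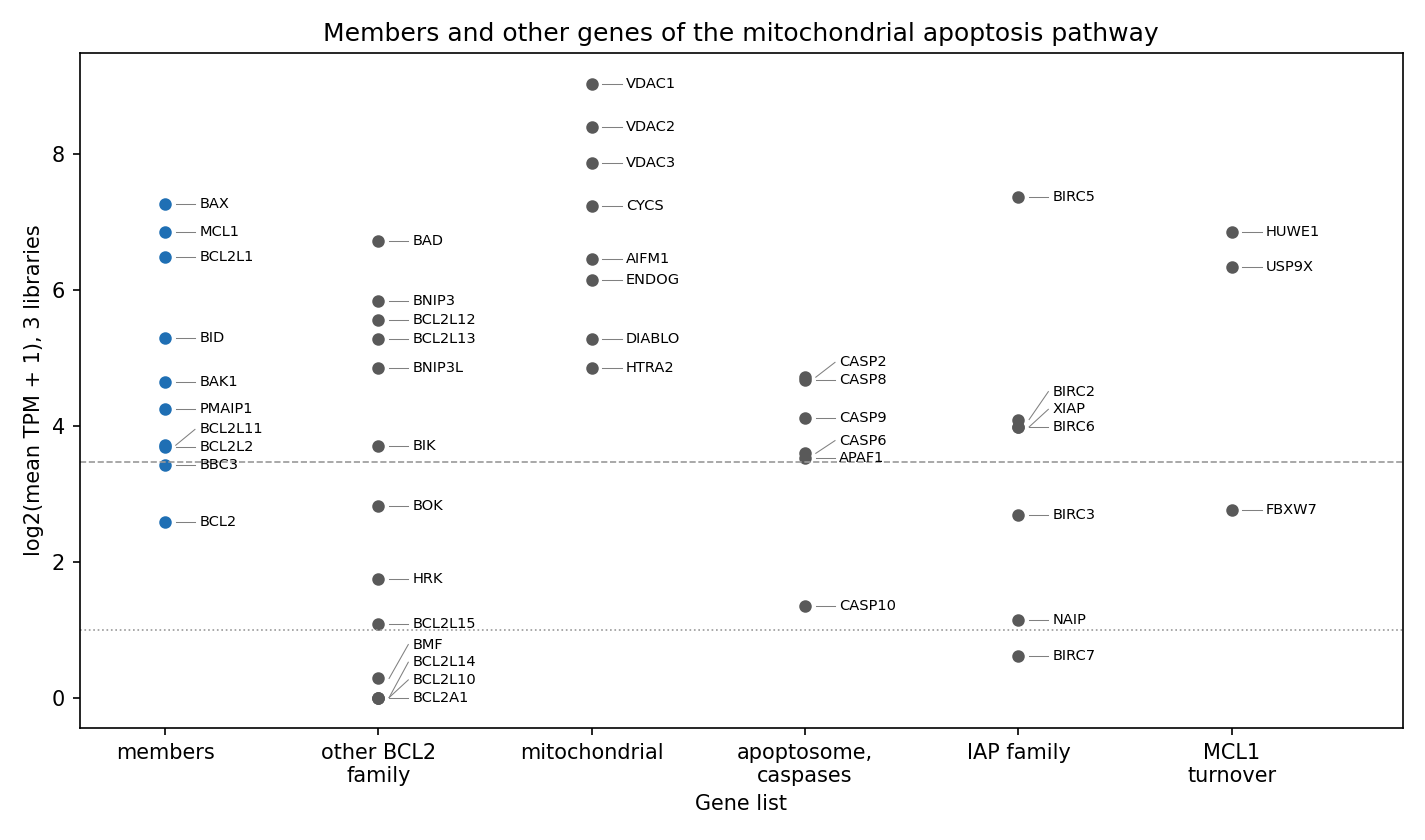
Mean level over 3 libraries, as log2(mean TPM + 1), of the 10 BCL2 family members (blue) and of 37 other genes of the mitochondrial apoptosis pathway (grey), in columns by list. The dashed line is at 10 TPM and the dotted line at 1 TPM. All 8 mitochondrial genes lie above the dashed line, and BCL2A1, BCL2L10 and BCL2L14 lie at 0.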

How the data were processed

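RNA labelled as polyA RNA was analysed in 3 libraries labelled HepG2, which form 1 condition. Per the submitters' processing notes and the methods, 150 bp paired-end reads were processed with FastQC 0.11.8, Trim Galore 0.6.2, STAR 2.6.1a and StringTie on GRCh38. The annotation and strand setting are not given in the sources used here. The authors deposited 1 table of genes per library. The TPM and FPKM deposited by the authors are scaled for length and library, and the coverage deposited by the authors is not scaled for library size. No counts were used, so the depth is unknown and no count model was run.

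The tables were joined on gene name, strand, start and end, and members were taken by gene name on references named without the character _. Pairs of genes were compared by log2 ratios of TPM within a library, with a pseudocount of 1, and tested by exact permutation of the signs (two-sided). Levels were counted at 1 and 10 TPM, and the range of log2(TPM + 1) was counted above 0.5 in rows with a mean of at least 1 TPM. The range call was run on simulated rows with a mean of at least 10 TPM, so the simulation does not cover rows between 1 and 10 TPM. The genes named were the 10 members, genes of 5 pathway lists that had at least 10 TPM or were listed at 0 in all libraries, rows that overlap a member, and the 3 rows nearest to the highest member. BMF, APAF1 and PABPN1 were named outside this rule, after their values were seen. Some listed genes are not reported here. The members and lists were chosen with earlier results of these data known. Transcripts and coding sequences were taken from GENCODE v44, and numbers of curated transcripts from RefSeq. Alternatives were FPKM, coverage, other pseudocounts and limits, 2 scalings and leaving out each replicate. Calculations used Python 3.11.15, numpy 2.4.6, pandas 2.3.3, scipy 1.17.1, Biopython 1.88 and matplotlib 3.10.9.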

Additional observations from a re-analysis of the deposited data

How the results depend on the processing

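No paired analysis was possible because all libraries belong to 1 condition. The 6 log2 ratios between members of the same role kept their direction in all 42 alternatives, but only coverage could have reversed them. FPKM is proportional to TPM, a pseudocount cannot change the sign, and all libraries already shared each direction. Leaving out each replicate in turn gave ranges of 0.35 to 0.40 for MCL1 to BCL2L1, 3.14 to 3.19 for MCL1 to BCL2L2, 3.87 to 3.93 for BCL2L1 to BCL2, 2.59 to 2.68 for BAX to BAK1, 1.54 to 1.61 for BID to BCL2L11 and -0.84 to -0.81 for BBC3 to PMAIP1. The smallest p is then 0.5. Coverage, chosen for these pairs after the values were seen, reversed BAX to MCL1 (-0.26), BCL2L11 to BBC3 (-1.93) and BCL2L11 to BCL2L2 (-2.69), and the cause was not tested. The log2 ratio of pro-survival to effector genes was 0.31, against 0.74 by coverage, 0.44 with the read-through gene added, and 0.27 to 0.34 with a replicate left out. Members with at least 10 numbered 8 by TPM, against 20.7% of the 39320 rows, and 7 on the coverage scale, against 16%. They numbered 5 by FPKM, whose values are lower by construction, and 9 without mitochondrially encoded genes, which raises every other TPM. For FPKM and without mitochondrially encoded genes the share of all rows was not counted, so these counts are not read as particular to the members. Without mitochondrially encoded genes BAX was at 191 TPM and BCL2 at 6.26 TPM. Rows with a range above 0.5 numbered 573, against 956 with a pseudocount of 0.1, 119 with a mean of at least 10 TPM, 1109 with no filter and 307 to 312 with a replicate left out, where fewer libraries can only lower a range. The number of members above 0.5 was 0 with a pseudocount of 0.1, with median-of-ratios scaling and without mitochondrially encoded genes. The other limits on the mean and the left-out replicates could not have raised it. As depth is unknown, no lower limit can be given for a gene listed at 0.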
